A study of Homo sapiens with 24 samples.

Results

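RNA from H2052 cells collected 12 h after they received a miR-497-5p mimic was compared with RNA from cells that received a control mimic. H2052 is a human line of pleural mesothelioma cells, a cancer of the membrane around the lung. The comparison used 6 of the 24 libraries of the series. They are the 3 input libraries of 12 h titled for the control miRNA and the 3 titled for miR-497-5p-RE, a suffix that the sources used here do not explain. Both mimics carried biotin at the 3′ end and were given at 20 nM with the lipid reagent RNAiMAX. The control sequence was scrambled and meant to match no transcript, so every library used below had been through the same transfection. Input means RNA of the cells with no bead step, and it is called RNA-seq here. The other 18 libraries are RNA-seq at 72 h and pull-downs, in which streptavidin beads retained RNA through the biotin, at both times. The pull-downs of 12 h and the RNA-seq of 72 h serve below as further readouts of the genes that changed at 12 h, and the 72 h RNA-seq libraries also share the model, and so its estimate of spread, with those of 12 h. All genes with enough counts were tested, 17335 of 57500 gene identifiers.

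A microRNA guides an Argonaute protein to messages that pair with its seed, the bases near its 5′ end, most often in the 3′ untranslated region (3′ UTR). The protein then recruits factors that shorten the poly(A) tail, slow translation and speed decay. miR-497-5p belongs to the miR-15/16 family, which shares 1 seed and is known for lowering cyclins, cell cycle kinases and BCL2. Messages with a seed site can fall as direct targets, and messages without one can follow later through the proteins that targets encode. RNA-seq of poly(A) RNA measures message amount only, does not measure the mimic, and misses targets repressed through translation alone.

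The mature sequence of miR-497-5p is shown first, because the seed decides which sites were searched, with 3 relatives for comparison. The capitals mark bases 2 to 8, counted from the 5′ end. RefSeq on GRCh38.p14 lists 7 human miRNAs with these same 7 bases, and miR-497-5p and miR-195-5p lie close together on chromosome 17, at chr17:7017979-7017999 and chr17:7017667-7017687, both on the minus strand.
miR-497-5p: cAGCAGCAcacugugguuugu
miR-195-5p: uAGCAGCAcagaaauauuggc
miR-16-5p: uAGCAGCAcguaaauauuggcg
miR-15a-5p: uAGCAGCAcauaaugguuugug

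Sites of 4 kinds were searched on the message strand of 3′ UTRs of protein-coding genes, taking the longest that GENCODE release 44 (GRCh38) annotates. They are TGCTGCTA (8mer), TGCTGCT (7mer-m8), GCTGCTA (7mer-A1) and GCTGCT (6mer), and each longer word contains the shorter ones, so a gene is placed by its best site. An 8mer or 7mer-m8 was present in 26.2% of the UTRs searched, and 52.5% held none of the 4 words. The stretches that follow come from genes that the results below turn on. They read 5′ to 3′ along the message, with T for U, and the capitals mark the site whose position is given. The first 2 are both sites of CCNE1, at chr19:29824024-29824031 and chr19:29824262-29824269 on the plus strand. PLSCR4 (chr3:146192836-146192843, minus strand), EPB41L4B (chr9:109173435-109173442, minus strand) and SPRED1 (chr15:38353578-38353585, plus strand) also hold an 8mer. WNT5B (chr12:1647075-1647081, plus strand) and ATP13A3 (chr3:194402799-194402805, minus strand) hold a 7mer-m8.
CCNE1, first site: gtgcgtgctcccgaTGCTGCTAtggaag
CCNE1, last site: aactgttttgtaagTGCTGCTAtatcta
PLSCR4: tgctcatttttacaTGCTGCTActagct
EPB41L4B: actcttataaatagTGCTGCTAtgaatg
SPRED1: tttatatatttgaaTGCTGCTAcaacag
WNT5B: aggggaagcttgagcTGCTGCTgtcact
ATP13A3: tttttaaaattgtatTGCTGCTcaagaa

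Control libraries held 26432049 to 30602007 counts and libraries with miR-497-5p 22185600 to 29707303. Keratins and vimentin of the cell line were high in all 6 libraries, with MSLN, a surface protein of mesothelial cells, at 75.3 to 80.4 CPM (counts set to the same total in each library). The mesothelial markers CALB2 and UPK3B were near 0, at no more than 2.16 and 0.378 CPM, and ITLN1 had no count in 4 of the 6. Messages typical of other tissues were also counted, and their origin was not tested. Summed over 40 markers of squamous epithelium, the level was 994, 933 and 397 CPM in control and 1270, 188 and 325 CPM with miR-497-5p. HBB, a haemoglobin gene of red blood cells, stood at 568, 462 and 0.229 CPM in control and at 5.86, 467 and 0.741 CPM with miR-497-5p. High and low libraries of both measures lie in both arms, so the sums overlap, but single squamous genes did differ. In 14 of the 39 squamous markers tested the arms did not overlap, and all of these but LCE3D were lower with miR-497-5p; the median log2 fold change of the list was -0.88. CRNN, a protein of the cornified layer, was at 12.1, 10.6 and 7.74 CPM in control and at 0.0451, 0 and 0.0673 CPM with miR-497-5p, and SPRR3, a protein of the cornified envelope, at 22.9, 22.1 and 14.7 CPM and then at 1.04, 0.115 and 0.842. Squamous markers were therefore kept out of the genes named for their size of change. Of the 39, edgeR called 9 lower and 1 higher, and DESeq2 1 lower and 0 higher. The count of lower ones was 6 without control replicate 1, control replicate 2 or miR-497-5p replicate 3. It was 23 without miR-497-5p replicate 1, where the median of the list was -3.33. Without miR-497-5p replicate 2 the median was -0.32. Of 12 blood, immune and endothelial markers tested, 0 were called by edgeR and 0 by DESeq2, and 1 had an unadjusted p under 0.05. The part of such RNA in other results was not tested.

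**Figure D1:**
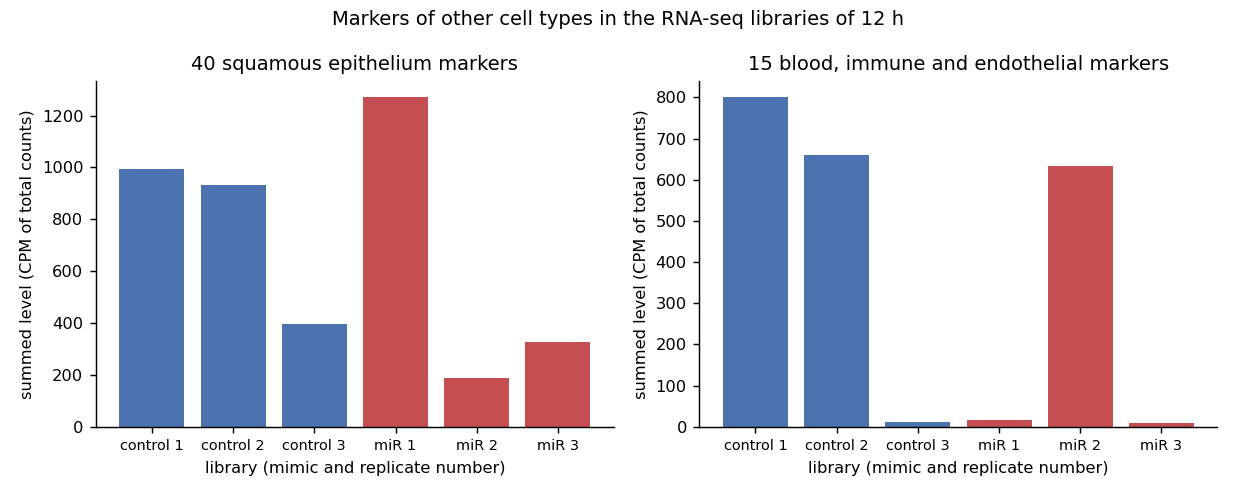
Summed level of markers of other cell types in each of the 6 RNA-seq libraries of 12 h, in CPM of total counts; blue bars are control and red bars miR-497-5p libraries. Squamous markers are highest in miR-497-5p replicate 1 (1270 CPM) and lowest in miR-497-5p replicate 2 (188 CPM), and blood markers reach 800, 661 and 633 CPM in control replicates 1 and 2 and in miR-497-5p replicate 2.

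By 12 h many messages had shifted, nearly all by small amounts. Called here means an adjusted p under 0.05 by the quasi-likelihood test of edgeR. Of all genes tested 7.25% were called higher (1256 genes) and 5.3% lower (919 genes), with a median log2 fold change of 0.2 among the higher and of -0.23 among the lower. At least 1.5-fold changes were rare: 60 of the higher and 74 of the lower, of which 11 and 13 averaged at least 5 CPM. The values of the 3 control libraries did not overlap those of the 3 miR-497-5p libraries for 25.7% of genes tested. Fitted on the 6 libraries alone, 839 were higher and 769 lower. Against a change of at least 1.2-fold, 18 genes passed as higher and 48 as lower. Scaling by library totals in place of TMM, edgeR's normalization, moved the median of all genes from 0.01 to -0.04 and turned the balance to 722 higher and 1746 lower, so the split of directions is not fixed by these data. Whether replicates came from separate cultures is not stated in the labels, so p-values reflect only how far these samples vary, which may be technical variation. In bulk RNA, fewer cells with a message and less of it per cell cannot be told apart.

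The largest falls were picked among called genes with at least 5 CPM, arms that do not overlap and no squamous marker. Each of the 12 largest falls picked in this way carried an 8mer or 7mer-m8 site. Larger falls of genes with fewer counts are not among them. Values in parentheses below are log2 fold changes of miR-497-5p over control with the standard error, from 3 libraries per arm, and CPM are scaled by TMM. PLSCR4 (ENSG00000114698, chromosome 3), a phospholipid scramblase, stood at 7.53, 7.8 and 8.02 CPM in control and at 3.34, 4.64 and 3.87 with miR-497-5p (-0.97 ± 0.13, adjusted p 2.99e-07). PPM1H (ENSG00000111110, chromosome 12), a protein phosphatase that acts on Rab GTPases, stood at 10.8, 10.9 and 11.1 CPM and then at 6.92, 6.07 and 6.36 (-0.76 ± 0.1, adjusted p 3e-07). EPB41L4B (ENSG00000095203, chromosome 9), a FERM-domain protein of the cell cortex, went from 65.1, 66.3 and 64.8 to 39.1, 41.7 and 40.9 CPM (-0.69 ± 0.05, adjusted p 7.67e-14). In these 3 genes the arms lie far apart compared with the spread inside them. FGFR3, a receptor for fibroblast growth factors, stood at 12.6, 9.92 and 6.26 CPM in control and at 6.21, 5.41 and 4.68 with miR-497-5p (-0.82 ± 0.2, adjusted p 0.0116). Its arms barely separate, and the order of its values inside the control arm is that of the squamous sums given above, whose part in the result was not tested. The FGFR3 call ended on the 6 libraries of 12 h alone (adjusted p 0.185) and without miR-497-5p replicate 2 (adjusted p 0.0532) or replicate 3 (adjusted p 0.0632).

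KLHL15, a substrate adaptor of CUL3 ubiquitin ligases, stood at 24.7, 25.1 and 25.5 CPM in control and at 14.4, 18 and 17.6 with miR-497-5p (-0.59 ± 0.07, adjusted p 2.48e-08). ATP13A3 (ENSG00000133657, chromosome 3), a P-type ATPase that carries polyamines, went from 78.7, 79.1 and 80.7 to 48.6, 55.1 and 55.3 CPM (-0.58 ± 0.05, adjusted p 4.61e-13). SPRYD3 stood at 40, 39 and 39.9 CPM and then at 26.6, 26.1 and 26 (-0.6 ± 0.06, adjusted p 1.53e-09), and its UTR holds 4 sites. TPRG1L, a vesicle protein of synapses in brain, went from 42.3, 47.1 and 46.5 to 32.4, 28.6 and 29.6 CPM (-0.59 ± 0.06, adjusted p 9.22e-10). BCL2, which protects cells from apoptosis, went from 8.63, 8.56 and 7.67 to 5.66, 4.64 and 5.99 CPM (-0.61 ± 0.13, adjusted p 0.000715). The arms of these 5 genes do not overlap, which the rule that picked them required. The remaining 3 of the 12 were the cell cycle genes CCNE1 (22.7, 22.5 and 22.2 CPM against 13.2, 13.1 and 14.8), CDK6 (43, 46.6 and 50.4 against 27.5, 29.6 and 33.4) and CDC25A (27, 25.6 and 28.2 against 18, 17.1 and 18.5).

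**Figure D2:**
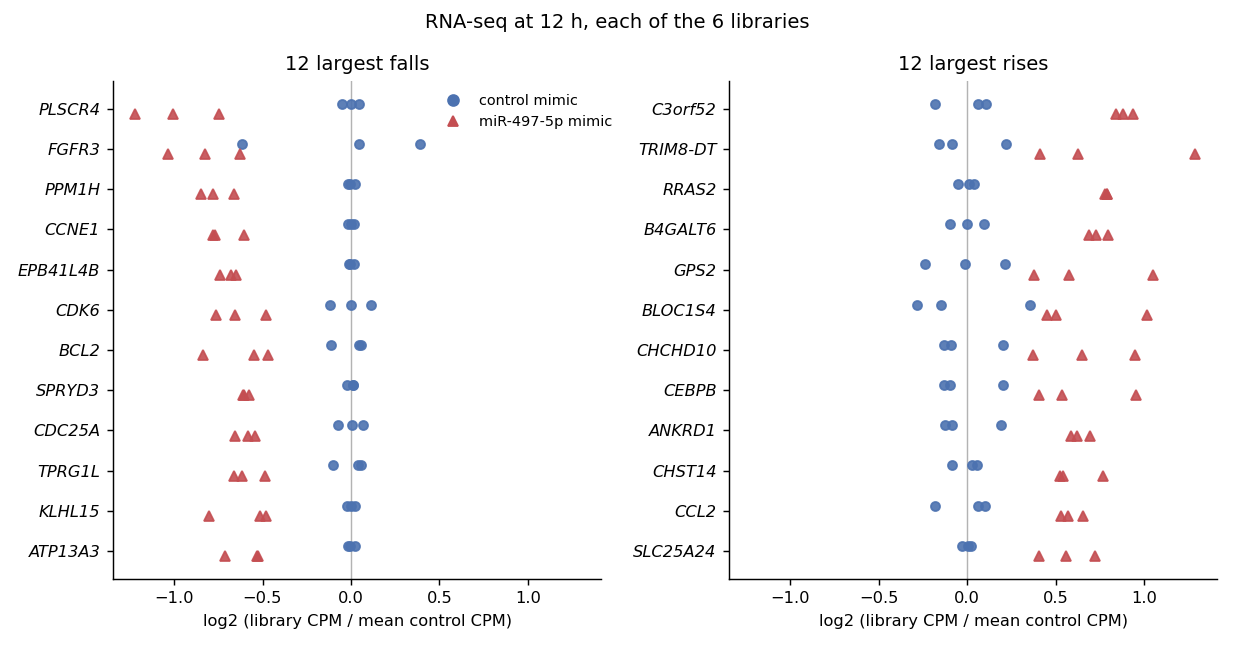
Level of the 12 largest falls and 12 largest rises in each RNA-seq library of 12 h. Genes were picked among called ones with at least 5 CPM, separate arms and no squamous marker. Values are log2 of the library's CPM over the mean control CPM, with circles for control and triangles for miR-497-5p libraries. Among the falls PLSCR4 is lowest by its fitted value (-0.97), single libraries of PLSCR4 and FGFR3 lie past the 2-fold mark, and for RRAS2 the 3 treated libraries coincide (681, 680 and 675 CPM).

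Sites for the seed went with falls across all genes. Among 722 genes with an 8mer, 157 were called lower and 22 higher (21.7% and 3.05%), and their median log2 fold change was -0.1. A 7mer-m8 was the best site of 2932 genes, with 350 lower and 124 higher and a median of -0.04. For 537 genes with a 7mer-A1 the counts were 68 and 25 and the median -0.05. For 2429 genes with only a 6mer the counts were 147 and 147 and the median -0.01. Among 7327 genes with none of the words 173 were lower and 844 higher, with a median of 0.03. More sites went with lower medians: -0.03 for 1 site of 7 or 8 bases, -0.08 for 2 and -0.11 for 3 or more. The median UTR lengths of these groups also grew, at 2363, 3448 and 5001 bases, and the groups were not split by length. Looked at from the calls, 56.6% of the lower genes with a searched UTR had an 8mer or 7mer-m8, against 12.6% of the higher genes and 26.2% of all. Even so 19.3% of the lower genes held no site, and 22 genes with an 8mer were higher.

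Long UTRs hold more sites by length alone, and fold changes at 12 h also varied with message length. In 5 classes of exon length from short to long, medians were 0.11, 0.06, 0.01, -0.03 and -0.06. The share called higher went from 12.7% in the shortest class to 1.96% in the longest, and the share called lower from 0.692% to 11.8%. Spearman's rho of each library's log2 ratio to the control mean on exon length was -0.241, -0.176 and -0.235 for the 3 miR-497-5p libraries and -0.0529 to 0.0288 for the control libraries, a description across genes with no test. Genes with an 8mer were lower than genes without a site in every class of UTR length all the same, at -0.13, -0.1, -0.11, -0.08 and -0.1, where genes without a site had 0.09, 0.05, 0.01, -0.02 and -0.04. In the shortest class the 8mer value rests on 21 genes. Of 14975 words of 7 bases carried by at least 200 UTRs, and compared within classes of UTR length, GCTGCTA had the lowest median of its carriers (-0.045, 1543 genes). The next lowest were CGATTTA (-0.039) and TGAACGA (-0.036), and TGCTGCT stood at rank 20 with -0.027. At the other end TCGGCAC had the highest median, 0.038. The median of 8mer genes minus that of genes without a site was -0.15, -0.11 and -0.11 in the 3 miR-497-5p libraries taken singly. With an offset that removes the length trend from each library, that gap went from -0.13 to -0.085.

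**Figure D3:**
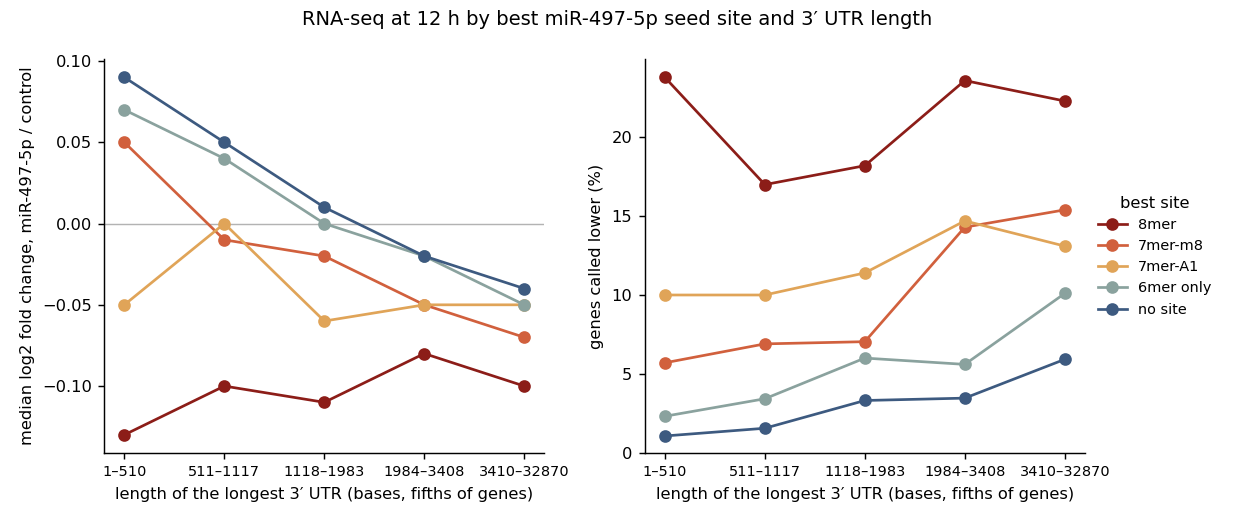
RNA-seq at 12 h by best seed site and by 3′ UTR length in 5 classes; the left panel shows the median log2 fold change (miR-497-5p over control) and the right panel the percentage of genes called lower. Medians of genes without a site go from 0.09 to -0.04 with UTR length, while those of 8mer genes lie between -0.13 and -0.08 in every class.

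The pull-down of the same time gives a readout that the RNA-seq contrast did not use. Pull-down values compare miR-497-5p with control libraries on the beads and were not corrected for the change in RNA-seq. A value near or below 0 therefore does not show that a message was not retained. Only 0.326% of genes tested in the pull-down were called higher there (57 genes). Of the 919 genes lower in RNA-seq, 15 were among them, which is 1.63% of the lower genes and 26.3% of the retained ones. An 8mer or 7mer-m8 was present in 10 of the 15, beside 56.6% of all lower genes with a searched UTR. Another 6 genes were higher in both readouts, and 4 were lower in both. Most lower genes were not called in the pull-down, and the median pull-down value of the lower genes was -0.03 against -0.01 for all genes. It was -0.03 for lower genes with an 8mer or 7mer-m8 and -0.02 for lower genes without a site. WNT5B (ENSG00000111186, chromosome 12), a secreted WNT ligand, stood in RNA-seq at 139, 144 and 148 CPM in control and at 106, 100 and 99 with miR-497-5p (-0.5 ± 0.04, adjusted p 7.01e-12). On the beads WNT5B went the other way, from 213, 194 and 182 to 346, 277 and 330 CPM (0.69 ± 0.1, adjusted p 0.000501). SPRED1, an inhibitor of RAS and ERK signalling that acts with NF1, fell in RNA-seq from 50.6, 49.8 and 55.8 to 39.9, 43.5 and 43.7 CPM (-0.3 ± 0.06, adjusted p 0.000195). Its pull-down values were 26.3, 32 and 31.7 CPM in control against 80.1, 46.1 and 64.7 with miR-497-5p (1.08 ± 0.19, adjusted p 0.00378). CDC37L1, a relative of the HSP90 co-chaperone CDC37, fell from 11.6, 14.4 and 13.4 to 9.5, 9.9 and 9.98 CPM (-0.42 ± 0.09, adjusted p 0.00129). It rose on the beads from 6.02, 5.71 and 8.02 to 22.4, 17.5 and 22.5 CPM (1.66 ± 0.25, adjusted p 0.00117). The treated and control values of these 3 genes do not overlap in either readout.

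The others of the 10 were CCNE1, CDK6, WEE1, FGF2, RBMS1, EIF3A and FBXW7. FGF2, a growth factor with 5 sites, fell from 118, 112 and 125 to 82.5, 95 and 91.7 CPM (-0.4 ± 0.04, adjusted p 2.07e-08) and had 0.5 ± 0.12 in the pull-down (adjusted p 0.0494). RBMS1, an RNA-binding protein, fell from 152, 166 and 160 to 121, 131 and 134 CPM (-0.31 ± 0.04, adjusted p 6.54e-08), with 0.5 ± 0.1 on the beads (adjusted p 0.0162). EIF3A, a subunit of translation initiation factor eIF3, fell from 89.2, 99.1 and 101 to 83.5, 81 and 78.3 CPM (-0.25 ± 0.05, adjusted p 7.01e-05), with 0.55 ± 0.13 (adjusted p 0.0424). FBXW7, the ubiquitin ligase subunit that targets cyclin E and MYC, fell from 15, 13.8 and 13.9 to 12.2, 11.4 and 12.1 CPM (-0.26 ± 0.08, adjusted p 0.0181), with 0.63 ± 0.14 (adjusted p 0.03). That FBXW7 fall is the least firm: with the length offset its adjusted p was 0.121 and without control replicate 1 it was 0.107. Of the 5 without an 8mer or 7mer-m8, BRPF3 and HSPA8 hold a 7mer-A1, EZR and SMC1A a 6mer, and DDR1 no site.

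**Figure D4:**
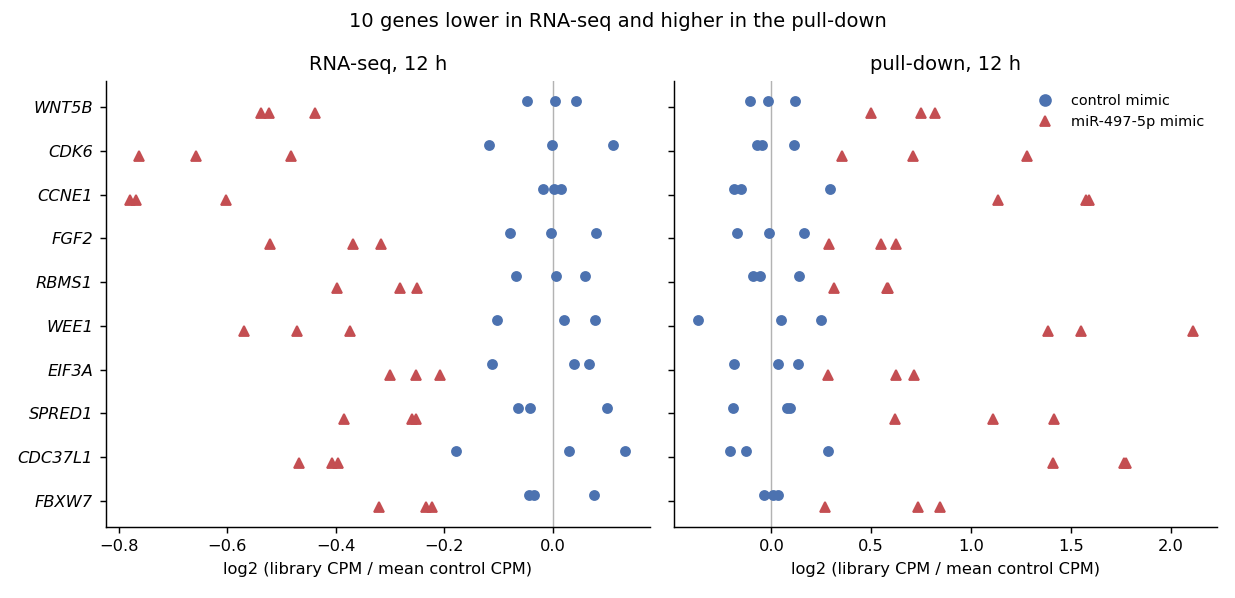
The 10 genes with an 8mer or 7mer-m8 site that were lower in RNA-seq and higher in the pull-down at 12 h, as log2 of each library's CPM over the mean control CPM of that readout; circles are control and triangles miR-497-5p libraries. In each gene the 3 treated values lie below the control values in RNA-seq and above them in the pull-down.

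Counts of the lists below stand beside 7.25% higher and 5.3% lower among all genes tested. Growth factor receptors and their ligands were shifted downward as a list. Of 32 tested, 9 were lower and 0 higher (edgeR and DESeq2; 4 higher at an unadjusted p under 0.05), with a median of -0.09 beside 0.01 for all genes. Besides FGFR3 and FGF2 they were INSR, IGF1R, IGF2R, EGFR, FGFR1, PDGFA and AXL, and 7 of the 9 have an 8mer or 7mer-m8. INSR, the insulin receptor, stood at 8.6, 8.43 and 8.26 CPM in control and at 6.54, 5.27 and 5.36 with miR-497-5p (-0.56 ± 0.11, adjusted p 0.000438). IGF1R, the receptor of insulin-like growth factors, went from 30.5, 33.4 and 31.8 to 26.9, 26.1 and 25.6 CPM (-0.29 ± 0.06, adjusted p 0.0012). AXL, a receptor kinase with no site, fell by less, from 520, 535 and 549 to 499, 486 and 487 CPM (-0.12 ± 0.03, adjusted p 0.00465). EGFR, the epidermal growth factor receptor, had -0.19 (adjusted p 0.00649). With the length offset 6 of the list were lower and 1 higher. INSR, IGF1R, FGF2 and FGFR1 are also on the list of published targets of the family, of which 23 of 50 were lower and 1, BMI1, was higher. Members of any list beyond the 4 with the smallest adjusted p are named here after their values were seen.

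Behind these receptors, RAS and ERK genes moved in both directions. RRAS2 (ENSG00000133818, chromosome 11), a RAS-related GTPase, had the most certain change of all, from 405, 379 and 397 CPM in control to 681, 680 and 675 with miR-497-5p (0.79 ± 0.03, adjusted p 5.88e-24), and its UTR holds only a 6mer. PTPN11, the phosphatase SHP2 that passes receptor signals to RAS, fell from 272, 284 and 290 to 224, 226 and 229 CPM (-0.32 ± 0.03, adjusted p 2.16e-09). NF1, which switches RAS off, fell from 39.7, 41.3 and 42.3 to 32.4, 34 and 33 CPM (-0.31 ± 0.06, adjusted p 0.000144). SHOC2, a scaffold that activates RAF, fell from 52.8, 57.9 and 58.7 to 40.7, 50 and 47.5 CPM (-0.29 ± 0.06, adjusted p 0.000238). Activators and an inhibitor thus fell side by side, and their arms do not overlap. In this list of 26 RAS and kinase genes 4 were higher, with RRAS, MAP2K2 and RHEB beside RRAS2, and 3 lower; by library totals the counts were 2 and 6, and without miR-497-5p replicate 2 they were 3 and 5.

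Of 30 ERK feedback and immediate early genes 9 were higher and 2 lower, with a median of 0.11. DUSP1, a phosphatase that switches off MAP kinases, rose from 118, 111 and 110 to 158, 131 and 135 CPM (0.32 ± 0.05, adjusted p 0.000138). DUSP5, which acts on ERK in the nucleus, rose from 48.3, 49.5 and 49.5 to 59.8, 57.3 and 56.9 CPM (0.24 ± 0.05, adjusted p 0.000848). SPRY2, a feedback inhibitor of receptor signalling, rose from 31.6, 30.5 and 30.5 to 36.1, 38.7 and 37.6 CPM (0.28 ± 0.06, adjusted p 0.00158). Each of these 3 has no site and separate arms. The others higher were ETV5, KLF2, JUND, DUSP7, MYC and PHLDA1, and the lower ones SPRED1 and KLF6. Without control replicate 3 the counts were 5 higher and 5 lower.

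In the PI3K and mTOR list 4 of 31 were higher and 2 lower, with a median of -0.02. EIF4EBP2 (ENSG00000148730, chromosome 10), a repressor of cap-dependent translation that mTOR inactivates, rose from 114, 112 and 113 to 159, 163 and 158 CPM (0.5 ± 0.03, adjusted p 2.25e-15) although its UTR has a 7mer-A1. PIK3R1, a regulatory subunit of PI3K, was lower (-0.32, adjusted p 0.0443), while RPS6KB2 and EIF4EBP1 were higher by 0.13 and 0.12. By library totals 1 was higher and 5 lower, and 2 were higher without control replicate 2, control replicate 3 or miR-497-5p replicate 1.

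Of the TGF-β and BMP list 7 of 32 were lower and 4 higher, with a median of -0.09, and the 7 all hold an 8mer or 7mer-m8. SMURF2, a ubiquitin ligase that removes TGF-β receptors and SMADs, fell from 280, 278 and 281 to 213, 217 and 211 CPM (-0.39 ± 0.03, adjusted p 7.01e-12). SMAD5, a signal carrier of BMP receptors, fell from 61, 61 and 56.8 to 49, 53 and 53.4 CPM (-0.2 ± 0.05, adjusted p 0.00335). The receptors ACVR2B, BMPR1A and TGFBR3, with SMURF1 and SMAD3, were the other lower members. Among the higher were ID1, ID2 and ID3, inhibitors of bHLH factors that BMP signals induce. ID2 rose from 9.78, 9.69 and 8.94 to 11.7, 13.5 and 14.1 CPM (0.48 ± 0.08, adjusted p 2.68e-05), and ID1 from 33.5, 37.9 and 33.7 to 45.8, 40.9 and 42 CPM (0.29 ± 0.06, adjusted p 0.000309). The arms of SMURF2, SMAD5, ID1 and ID2 do not overlap. These long messages are sensitive to the length offset, which left 1 lower and 2 higher, and 3 were lower without control replicate 3.

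WNT genes gave 4 lower and 3 higher of 35, where 5.3% and 7.25% of all genes tested were lower and higher. Beside WNT5B, BTRC, the ubiquitin ligase subunit that removes β-catenin, fell from 19.9, 21.6 and 21.2 to 15.8, 13.6 and 13.4 CPM (-0.55 ± 0.08, adjusted p 7.5e-07). FZD6, a Frizzled receptor, fell from 80.2, 83.6 and 90.9 to 64.4, 71.6 and 66.7 CPM (-0.33 ± 0.05, adjusted p 1.37e-06), and FZD5 was lower as well (-0.35, adjusted p 0.0388). DKK1, a secreted WNT inhibitor, rose from 381, 385 and 398 to 427, 427 and 436 CPM (0.15 ± 0.03, adjusted p 0.000731, and 0.175 with the length offset), and FZD2 and DVL3 were higher. Of the WNT list 1 was higher without control replicate 3 or miR-497-5p replicate 1. In the Hippo list 6 of 23 were lower and 2 higher, with 2 and 1 under the length offset and 9 and 1 by library totals. ANKRD1, an induced target of YAP, rose from 9.68, 9.39 and 11.7 to 16.6, 15.8 and 15.4 CPM (0.63 ± 0.09, adjusted p 4.86e-07), and CCN2, another, was higher by 0.24 (adjusted p 0.0426). SAV1, a scaffold of the Hippo kinases, had 50.1, 48.2 and 50.6 CPM in control against 44.9, 44.7 and 42.9 with miR-497-5p (-0.17 ± 0.05, adjusted p 0.00922). MOB1B, STK4, AMOTL1, TEAD1 and AXL were the other lower members, and 2 were lower without control replicate 2 and 1 without control replicate 3.

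In the list of inflammatory genes 8 of 31 were higher and 1 lower, with a median of 0.13, and none of the 8 has a site. CCL2, which attracts monocytes, rose from 5.07, 4.93 and 4.17 to 7.01, 7.43 and 6.83 CPM (0.59 ± 0.09, adjusted p 3.48e-06). CXCL3, which attracts neutrophils, rose from 10.6, 12.3 and 11.8 to 16.3, 15.7 and 16 CPM (0.47 ± 0.08, adjusted p 7.39e-05), and CXCL8, with the same role, from 26.5, 23.5 and 22 to 29.6, 31.8 and 37.2 CPM (0.46 ± 0.07, adjusted p 1.31e-05). CXCL6, IL1A, IL1B, IL6 and the NF-κB subunit RELB were also higher. TAB3, an adaptor that activates the kinase TAK1, has a 7mer-m8 and fell from 81.2, 82.8 and 87.4 to 66.5, 72.1 and 74.3 CPM (-0.24 ± 0.04, adjusted p 8.52e-05). The arms of these 4 genes do not overlap. Without control replicate 3, 5 of the list were called higher.

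Interferon genes gave 5 higher and 1 lower of 30, with a median of 0.11. ISG15, a ubiquitin-like protein, rose from 9.94, 9.42 and 10.3 to 13.9, 11.9 and 13.3 CPM (0.39 ± 0.08, adjusted p 0.000378). IFI27 rose from 32.8, 31.6 and 33.1 to 43.7, 39.2 and 37.2 CPM (0.3 ± 0.06, adjusted p 0.000158), and IFI35, IFI44 and MX2 were higher. EIF2AK2, the RNA-activated kinase PKR, holds a 7mer-A1 and fell from 111, 111 and 121 to 97.6, 101 and 103 CPM (-0.18 ± 0.04, adjusted p 0.00147, and 0.0678 with the length offset). DESeq2 called 3 higher and 1 lower, as did edgeR without control replicate 2 or miR-497-5p replicate 1.

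Stress responses rose in part. Of 30 genes of the ATF4 and unfolded protein responses 7 were higher and 1 lower, with a median of 0.07. DDIT3, a factor induced by ATF4, rose from 32.2, 34.6 and 36 to 43, 43.5 and 45.3 CPM (0.36 ± 0.06, adjusted p 2.18e-05). TRIB3, a pseudokinase of the same response, rose from 47.9, 46.9 and 48.8 to 61.9, 55.1 and 58.8 CPM (0.29 ± 0.05, adjusted p 7.06e-05), and HERPUD1, a protein of degradation at the endoplasmic reticulum, from 114, 119 and 115 to 133, 134 and 143 CPM (0.24 ± 0.04, adjusted p 7.19e-05). All 3 have separate arms and no site. CEBPB, DNAJB9, SDF2L1 and HSPA5 were the other higher members, and SLC7A5, an amino acid transporter with 2 sites, the lower one. Of 24 NRF2 and glutathione genes 11 were higher and 0 lower (edgeR; 0 lower also with DESeq2 and at an unadjusted p under 0.05), with a median of 0.14. FTL, the ferritin light chain, rose from 4100, 4100 and 4050 to 4780, 4520 and 4670 CPM (0.19 ± 0.02, adjusted p 7.19e-08). TXN, thioredoxin, rose from 368, 346 and 369 to 413, 422 and 436 CPM (0.23 ± 0.03, adjusted p 4.86e-07), and HMOX1, haem oxygenase, by 0.29 (adjusted p 7.56e-05). With the length offset 9 of the 24 were higher. The chaperone list, labelled cytosolic in the figure of gene lists, also holds the mitochondrial HSPE1. The list was split, with 3 of 21 higher and 4 lower. DNAJB4, a co-chaperone with 3 sites, fell from 46.6, 47.3 and 49.1 to 33.8, 38.2 and 37.1 CPM (-0.39 ± 0.06, adjusted p 5.11e-06), while HSPE1, the mitochondrial co-chaperonin, rose from 344, 330 and 346 to 386, 389 and 403 CPM (0.21 ± 0.03, adjusted p 7.56e-06).

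Genes of p53 and of apoptosis did not share a direction. Of 26 p53 targets 4 were higher and 3 lower, and with the length offset 1 and 3. Without control replicate 2 there was 1 higher, and without control replicate 1, control replicate 3 or miR-497-5p replicate 1 there were 2. ZMAT3, an RNA-binding protein, fell from 64.8, 62.4 and 66.5 to 51.6, 51.8 and 50.8 CPM (-0.33 ± 0.04, adjusted p 4.79e-08). BTG2, which promotes removal of poly(A) tails, fell from 24.5, 22.9 and 22.1 to 18.7, 16.4 and 18.5 CPM (-0.37 ± 0.07, adjusted p 7.78e-05). PHLDA3, an inhibitor of AKT, fell from 203, 197 and 187 to 177, 150 and 157 CPM (-0.28 ± 0.05, adjusted p 0.00041). All 3 hold an 8mer or 7mer-m8. GDF15, a stress cytokine without a site, rose from 19.9, 21 and 17.8 to 26.1, 22.9 and 25 CPM (0.34 ± 0.07, adjusted p 0.000424). In the BCL2 family BCL2 was lower, and BAD, PMAIP1, BCL2A1 and BAX, of which all but BCL2A1 promote cell death, were higher by 0.11 to 0.41. With the length offset BCL2 was the 1 member called, and without control replicate 2 or 3 there was 1 higher and 1 lower.

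The widest movement by share of a list was in the machinery of protein synthesis and respiration. Of 86 cytosolic ribosomal protein genes 79 were higher and 0 lower (edgeR; 0 lower also with DESeq2, 1 at an unadjusted p under 0.05), with a median of 0.22, and 71 were higher with the length offset. RPS21, a short message of the small subunit, rose from 574, 557 and 544 to 714, 667 and 713 CPM (0.32 ± 0.03, adjusted p 2.85e-10). RPS12 rose from 659, 648 and 672 to 801, 772 and 827 CPM (0.28 ± 0.03, adjusted p 5.64e-10). Only uniquely placed reads were counted, so genes with near-identical pseudogene copies lost an unknown share of reads. Of 79 mitochondrial ribosomal protein genes 33 were higher, 15 with the length offset or by library totals and 19 without control replicate 2. MRPS35 stood out among them, from 51.1, 49.7 and 51.8 to 68.5, 74.9 and 77.5 CPM (0.53 ± 0.05, adjusted p 8.37e-11), with only a 6mer in its UTR. Nuclear genes of complex I gave 22 higher of 38, and those of complexes II to V 34 of 42, with 14 and 28 under the length offset. Against a change of at least 1.2-fold, 0 members of the cytosolic ribosomal list and of both respiratory lists passed. In the mitochondrial ribosomal list 1 passed. COX5B, a subunit of cytochrome oxidase, rose from 135, 128 and 125 to 158, 153 and 162 CPM (0.29 ± 0.04, adjusted p 1.13e-07). Translation factors did not move as 1 group, with 8 of 47 higher and 4 lower, and 4 higher and 10 lower by library totals, where the median turned from 0.03 to -0.02. EIF4G1, the scaffold of the cap-binding complex, fell from 199, 208 and 199 to 167, 157 and 157 CPM (-0.33 ± 0.04, adjusted p 5.72e-09).

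Messages made in mitochondria rose as well, with 10 of 13 higher, 5 with the length offset and 1 against a change of at least 1.2-fold. MT-ND4 went from 3900, 3970 and 3810 to 4550, 4600 and 4630 CPM (0.24 ± 0.02, adjusted p 3.12e-10). The share of all counts from mitochondrial genes was 3.92% to 4.13% in control against 4.27% to 4.5% with miR-497-5p, with no overlap. Glycolytic genes gave 7 higher of 31, and 3 without control replicate 1 or by library totals, among them TPI1 (732, 723 and 724 CPM against 798, 809 and 799) and GAPDH (2890, 2890 and 2900 against 3280, 3030 and 3100), whose calls both ended with the length offset (adjusted p 0.0746 and 0.0741). Genes of cholesterol and fatty acid synthesis went the other way, with 7 of 32 lower and 0 higher (edgeR; 0 higher also with DESeq2, 1 at an unadjusted p under 0.05). FASN, the fatty acid synthase, with 3 sites, fell from 129, 133 and 132 to 120, 114 and 110 CPM (-0.2 ± 0.04, adjusted p 0.000447). INSIG1, a brake on sterol synthesis, has no site and fell from 55.5, 58.5 and 59.7 to 48.5, 51.7 and 50.6 CPM (-0.2 ± 0.05, adjusted p 0.00153). SCD, FADS1, SQLE and SREBF2 were also lower. The count was 2 without control replicate 3 and 4 without control replicate 2 or miR-497-5p replicate 3.

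**Figure D5:**
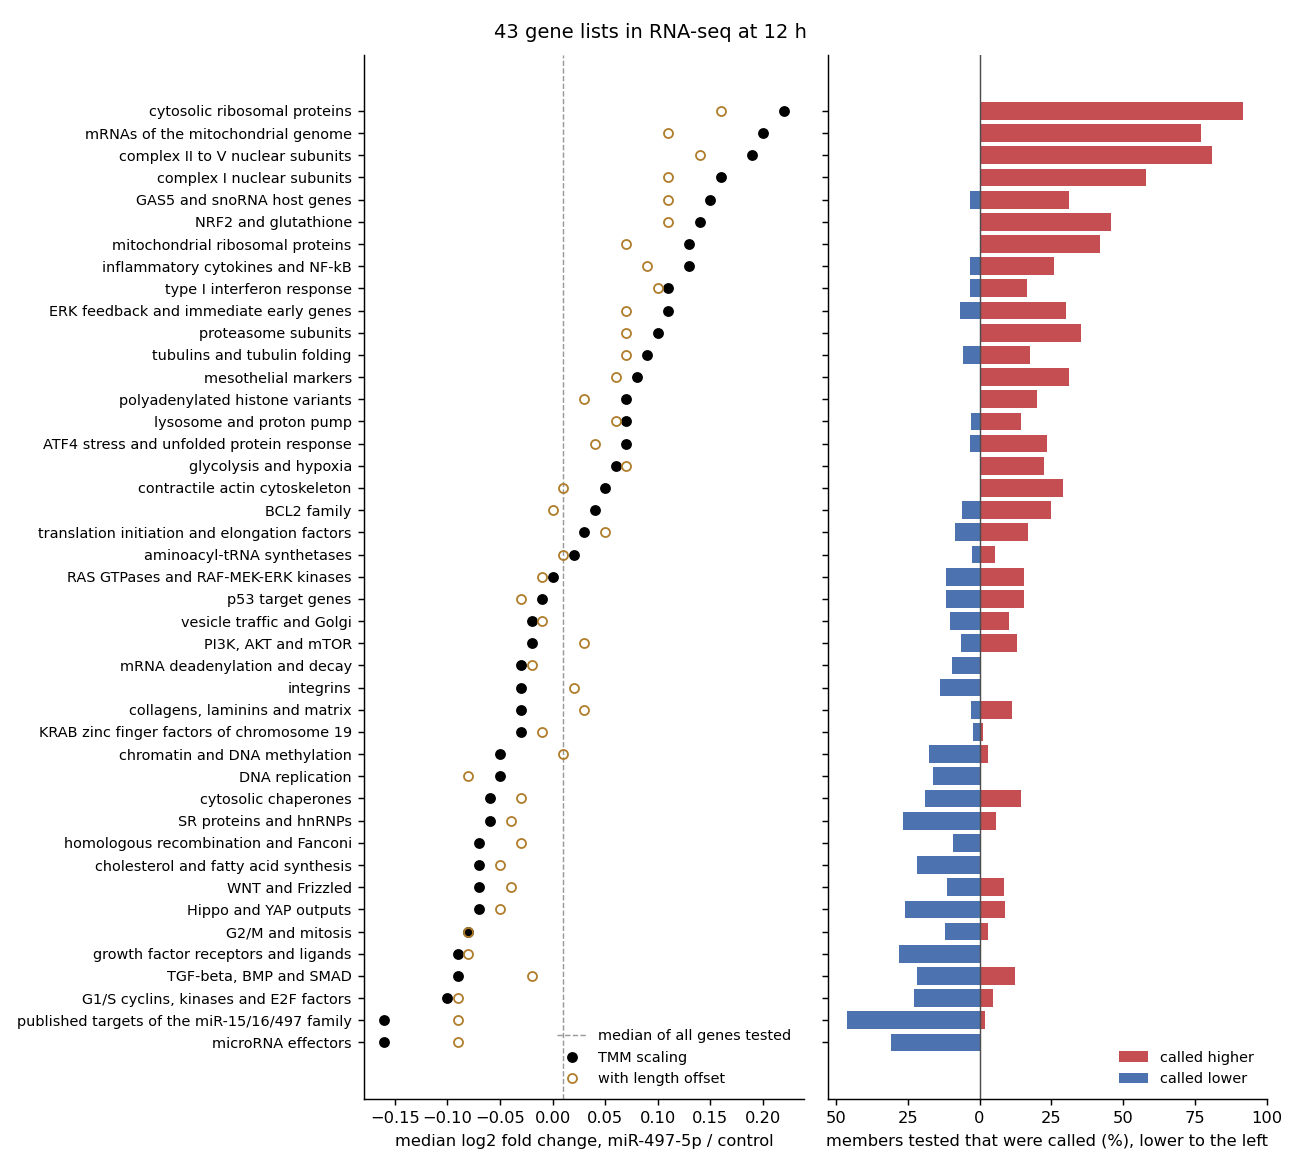
Gene lists in RNA-seq at 12 h without the squamous and the blood, immune and endothelial markers, sorted by their median log2 fold change (left, filled points with TMM scaling and open points with the length offset; the dashed line is the median of all genes, 0.01) beside the percentage of tested members called higher or lower (right). Cytosolic ribosomal proteins (0.22), mitochondrial messages (0.2) and both lists of respiratory chain subunits (0.19 and 0.16) lie highest among those shown, and microRNA effectors and published targets lowest, at -0.16; the offset moves both ends toward the middle.

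The machinery that microRNAs work through was itself lower in part. Of 13 microRNA effectors edgeR called 4 lower and 0 higher, with a median of -0.16. DESeq2 also called 0 higher, and 1 was higher at an unadjusted p under 0.05. These are long messages, with a median exon length of 11111 bases beside 4375 for all genes tested. With the length offset 4 were lower and the median was -0.09. AGO2, the Argonaute that can cut its target, fell from 85.3, 89.9 and 93.9 to 73.9, 73.3 and 75.4 CPM (-0.27 ± 0.04, adjusted p 7.96e-06). AGO1 fell from 40.6, 43 and 45.6 to 37.5, 36.2 and 33.9 CPM (-0.27 ± 0.05, adjusted p 0.00042), and the UTRs of both hold 3 sites. DROSHA, which cuts primary microRNA transcripts, has no site and fell from 109, 118 and 124 to 98, 104 and 101 CPM (-0.21 ± 0.05, adjusted p 0.000793). TARBP2, a partner of DICER1, was the other. The TARBP2 call ended without control replicate 3 (adjusted p 0.097) and without miR-497-5p replicate 2 (0.0706) or replicate 3 (0.0707). In the deadenylation list BTG2, CNOT11 and the decapping enzyme gene DCP2 were lower, 3 of 31, beside 5.3% of all genes tested. CNOT11, a subunit of the CCR4-NOT deadenylase, fell from 67.3, 71.8 and 72 to 60.8, 57 and 58.7 CPM (-0.26 ± 0.05, adjusted p 0.000171).

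Of 34 SR proteins and hnRNPs 9 were lower and 2 higher, and 5 were lower with the length offset or without control replicate 3. HNRNPUL2 fell from 80, 80.8 and 78.2 to 63.2, 64.8 and 65.7 CPM (-0.3 ± 0.04, adjusted p 2.52e-06), while SRSF9, a splicing factor, rose from 324, 300 and 305 to 375, 343 and 344 CPM (0.19 ± 0.04, adjusted p 0.000103). Of 34 chromatin genes 6 were lower and 1 higher, with a median of -0.05 that turned to 0.01 with the length offset. With that offset, or without control replicate 2 or 3, 2 were lower, and 3 without miR-497-5p replicate 2 or 3. CBX6, a Polycomb protein with 3 sites, fell from 49, 53.2 and 51 to 40.4, 41.7 and 37.9 CPM (-0.35 ± 0.05, adjusted p 2.82e-06). BMI1, another Polycomb gene and a published target whose annotated UTR holds none of the words, rose from 38.1, 37.1 and 41.3 to 42.8, 52.3 and 53.8 CPM (0.36 ± 0.06, adjusted p 5.99e-05).

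Matrix and cytoskeleton genes changed singly more than as groups. SPARC (ENSG00000113140, chromosome 5), a secreted matrix glycoprotein, fell from 505, 506 and 507 to 401, 399 and 394 CPM (-0.35 ± 0.03, adjusted p 1.4e-11) with only a 6mer. MMP1, interstitial collagenase, rose from 167, 170 and 177 to 203, 204 and 216 CPM (0.28 ± 0.04, adjusted p 1.49e-06). The list of 35 matrix genes had 4 higher and 1 lower, against 3 and 5 by library totals, and its median turned from -0.03 to 0.03 with the length offset. Of 22 integrins 3 were lower, namely ITGAV, ITGB1 and ITGB8 (1 without control replicate 2). Contractile actin genes had 9 of 31 higher, but 5 higher and 7 lower by library totals and 8 and 5 without miR-497-5p replicate 1. MYL6, a myosin light chain with an 8mer, rose from 574, 548 and 559 to 692, 653 and 677 CPM (0.27 ± 0.03, adjusted p 2.16e-08).

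Cell cycle genes other than the published targets had moved little by 12 h. Of 37 DNA replication genes 6 were lower, among them MCM10, POLE, GINS1, MCM4 and FEN1, with log2 fold changes of -0.44 to -0.15 for these 5, and 2 were lower without control replicate 2 or 3. Of 33 mitotic genes 4 were lower and 1, CDC20, higher, with 2 lower without control replicate 2 or 3. The CDC20 call ended with the length offset (adjusted p 0.644), by library totals (0.203), on the 6 libraries alone (0.0538) and without control replicate 1 or 2 or miR-497-5p replicate 1. BRCA1, a gene of homologous recombination, was lower (-0.26 ± 0.08, adjusted p 0.0229, and 0.105 without control replicate 3). CDK4, named in the study as a known target, had 367, 373 and 370 CPM in control against 370, 349 and 357 with miR-497-5p (-0.04 ± 0.04, adjusted p 0.509). Its arms overlap. CCND1, the cyclin that partners it, is another target that the design text names, and it fell by 0.32 on the log2 scale, whereas VEGFA had 0.05 (adjusted p 0.744). Of the kinases in the study's title, WEE1 fell from 31.5, 35.7 and 34.3 to 22.8, 24.4 and 26.1 CPM and PKMYT1 had 0.02 (adjusted p 0.874).

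The largest rises, picked by the same rule as the falls, were mostly of genes without a site. Of the 12, 8 had none of the words, RRAS2 and BLOC1S4 only a 6mer, and CHST14, a sulfotransferase of dermatan sulfate, 1 7mer-m8. The last, TRIM8-DT, is a non-coding RNA and has no 3′ UTR to search. C3orf52 (ENSG00000114529, chromosome 3), a membrane protein, stood at 8.33, 7.04 and 8.58 CPM in control and at 15.3, 14.7 and 14.3 with miR-497-5p (0.88 ± 0.1, adjusted p 3.73e-09). B4GALT6, a galactosyltransferase that makes lactosylceramide, went from 6.75, 5.92 and 6.32 to 10.5, 10.2 and 11 CPM (0.74 ± 0.1, adjusted p 2.4e-07). SLC25A24, a mitochondrial carrier of ATP-Mg and phosphate, went from 25, 25.6 and 25.9 to 33.8, 42.1 and 37.5 CPM (0.57 ± 0.09, adjusted p 4.59e-05). These 3 have clear gaps between the arms. In TRIM8-DT, GPS2, BLOC1S4, CHCHD10 and CEBPB replicate 1 was the highest library in each arm, as for CEBPB, a transcription factor of stress and inflammation, with 68.9, 54.7 and 55.9 CPM and then 116, 86.6 and 79.4 (0.65 ± 0.15, adjusted p 0.0243). Fitted on the 6 libraries of 12 h alone, the adjusted p of CEBPB was 0.159, of GPS2 0.199, of TRIM8-DT 0.192, of BLOC1S4 0.11 and of CHCHD10 0.0675.

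Genes could also fall without a site. SLC40A1, the iron exporter ferroportin, had the largest fall of the 8 named by size, from 10.1, 11.1 and 10.8 to 7.01, 7.78 and 7.23 CPM (-0.54 ± 0.1, adjusted p 0.000197). SETD3, a methyltransferase that modifies a histidine of actin, had the smallest adjusted p of them, from 106, 103 and 104 to 73.5, 80.6 and 82 CPM (-0.4 ± 0.04, adjusted p 9.22e-10). SETD3 was not called on the beads, where its value, not corrected for the fall in RNA-seq, was -0.33 ± 0.11 (adjusted p 0.252). The others were SPARCL1, FAM169A, MCM10, MAGI3, LRRCC1 and SDC2, at -0.53 to -0.38. Of these, FAM169A, MCM10, MAGI3 and SDC2 lost the call without 3 or more of the 6 libraries taken singly.

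Changes at 12 h were a poor guide to the direction at 72 h, where 27.9% of all genes tested were higher and 29.6% lower against that time's own control libraries. Of the 919 genes lower at 12 h, 402 were lower again (43.7%) and 318 higher (34.6%). Of the 1256 genes higher at 12 h, 415 were higher again (33.0%) and 580 lower (46.2%). Among the 12 largest falls 10 were lower at 72 h, PLSCR4 was not called (-0.12 ± 0.14, adjusted p 0.507) and ATP13A3 was higher (0.43, adjusted p 8.76e-12). SPRYD3 and TPRG1L went furthest, to -1.86 (adjusted p 3.28e-23) and -1.61 (adjusted p 2.07e-24). Among the 12 largest rises 4 were higher at 72 h, RRAS2, B4GALT6, ANKRD1 and CCL2, 3 were lower and 5 not called. For RRAS2 the effect shrank to 0.13 ± 0.03, a difference between times of -0.65 ± 0.04 (adjusted p 1.76e-17). For C3orf52 it went to -0.15 ± 0.1, a difference of -1.03 ± 0.14 (adjusted p 2.71e-08). By list, complex I genes went from 22 higher of 38 at 12 h to 5 higher and 27 lower at 72 h, and mitochondrial ribosomal protein genes from 33 higher of 79 to 15 higher and 54 lower. Cytosolic ribosomal protein genes were split at 72 h, with 43 higher and 30 lower, and 12 of 13 messages of the mitochondrial genome were higher.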

How the data were processed

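Poly(A) RNA of H2052 cells was sequenced; 3 control and 3 miR-497-5p RNA-seq libraries of 12 h were compared. Per the submitters' processing notes and design text, Trimmomatic 0.36 was used for trimming, STAR 2.5.2b for alignment to the GRCh38 genome, and featureCounts of Subread 1.5.2 for counting unique reads in exons. The deposited files hold whole-number counts per gene as the authors made them, with no normalization; no source used here tells if strand was considered, so reads of antisense or overlapping genes may be mixed. Other columns of those files, such as gene length, were used for lengths only.

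Counts were fitted with edgeR 4.0.16 (R 4.3.3; TMM, default low-count filter, robust quasi-likelihood test) over the 12 RNA-seq libraries of both times; the 72 h and pull-down contrasts were fitted in the same way. The Benjamini-Hochberg adjustment ran over every gene tested, with a threshold of 0.05. Total counts of 22185600 to 30602007 per library and a biological coefficient of variation of 0.0601 over those 12 libraries (0.0824 over the 6 of 12 h alone) limit the precision. Symbols and 3′ UTRs came from GENCODE release 44, which held 98.1% of the identifiers. Alternatives included DESeq2 1.42.0 and other scalings, filters and offsets. The script was tested on simulated data.

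The comparison, the 45 gene lists and the naming rule were chosen with earlier results of these data known. The rule takes the 12 largest falls and rises among called genes with at least 5 CPM, separate arms and no squamous marker; per list, at most the 4 called members of lowest adjusted p; 10 genes lower in RNA-seq and higher in the pull-down with an 8mer or 7mer-m8; the 8 largest falls and rises without a site; 5 genes in each direction called the other way at 72 h; and 7 genes that the study names or that earlier results led with. Lists are described by counts and medians, with no test.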

Additional observations from a re-analysis of the deposited data

Results flagged for a closer look

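Of the genes with at least 5 CPM that were called at 12 h, 876 were called the other way at 72 h with a difference between the times that itself passed edgeR's quasi-likelihood test. The 5 with the largest difference in each direction are given here as the effect at 72 h minus the effect at 12 h. TUBA1B, an α-tubulin, had -2.37 ± 0.05; its 12 h rise was small (0.1, adjusted p 0.0464) and was lost without any 1 of 4 libraries, most clearly without miR-497-5p replicate 1 (adjusted p 0.403). KRT81, a hair keratin, had -2.07 ± 0.07, going from 0.27 at 12 h to -1.81 at 72 h. TRIM8-DT had -2.04 ± 0.32, ID3 -1.89 ± 0.08 and SLC25A24 -1.76 ± 0.15.

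In the other direction PRKG1, a cGMP-dependent kinase, had 1.93 ± 0.16, going from -0.36 to 1.57. PARD3B, a polarity protein, had 1.7 ± 0.19 and LPP, a protein of focal adhesions, 1.66 ± 0.07. SLC7A2, a transporter of basic amino acids, had 1.58 ± 0.15 and TOMM20, a receptor for import into mitochondria, 1.52 ± 0.05. Of these 5, PRKG1, LPP, SLC7A2 and TOMM20 hold a 7mer-m8. The 12 h calls of PRKG1, LPP, PARD3B and SLC7A2, and of TRIM8-DT among those above, also ended without single libraries. The highest adjusted p was 0.212 for PRKG1 and 0.182 for LPP, both without control replicate 3, and 0.0958 for PARD3B, 0.14 for SLC7A2 and 0.157 for TRIM8-DT, all without control replicate 2.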

How the results depend on the processing

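Against the 1256 higher and 919 lower genes, scaling by library totals gave 722 and 1746, the 6 libraries of 12 h alone 839 and 769, and testing for at least 1.2-fold 18 and 48. Leaving out each library in turn gave 843 to 1346 higher and 590 to 988 lower genes, the 590 without control replicate 2. The 15 genes also higher in the pull-down became 26 by library totals, 9 with the length offset, 2 at 1.2-fold, and 13 to 17 without single libraries. The 817 genes called the same way at 72 h became 27 at 1.2-fold and 576 to 976 without single libraries; the fit of the 6 libraries of 12 h alone gives no value for 72 h. The gap between 8mer genes and genes without a site, -0.13, became -0.085 with the length offset and -0.142 to -0.117 without single libraries.

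Deviations of same-numbered libraries correlated at 0.0485, 0.0409 and 0.174 across genes. Each miR-497-5p library correlated best with the control library of its own number, for replicates 1 and 2 by little. Control replicate 2 correlated slightly better with miR-497-5p replicate 1 (0.0465) than with replicate 2. The labels do not say what a replicate number shares, and the main fit has no replicate block. With the replicate number as a block 1262 genes were higher and 920 lower, and 9 of the lower were higher in the pull-down. The ERK feedback list then had 9 higher and 5 lower members. With the replicate block and the length offset these counts were 868, 628 and 7.

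Of 203 named genes none changed direction in any of these fits. Calls lost numbered 171 at 1.2-fold, 33 with the length offset, 15 by library totals, 22 with the 6 libraries alone, 0 of 189 with a DESeq2 value and 11 to 33 without single libraries.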

Other observations

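Host genes of small nucleolar RNAs, whose spliced transcripts share features with ribosomal protein messages, had 9 of 29 members higher and 1 lower (median 0.15). SNHG6 rose from 86.3, 88 and 89.4 to 103, 109 and 112 CPM (0.3 ± 0.04, adjusted p 5.36e-08) and ZFAS1 from 231, 216 and 231 to 264, 270 and 261 CPM (0.23 ± 0.03, adjusted p 8.1e-07). The count was 5 higher with the length offset or without control replicate 3, and 4 by library totals. Proteasome subunits had 11 of 31 higher, and 7 with the length offset or without control replicate 2. PSMB3 rose from 141, 143 and 142 to 172, 165 and 168 CPM (0.25 ± 0.04, adjusted p 7.25e-06).

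Vesicle traffic genes were divided, with 4 of 39 higher and 4 lower, beside 7.25% and 5.3% of all genes tested. All 4 lower ones hold an 8mer or 7mer-m8. RAB11FIP2, an effector of RAB11 in recycling, fell from 18.3, 20.3 and 19.5 to 10.1, 14.8 and 14.6 CPM (-0.55 ± 0.09, adjusted p 4.28e-05). ARFGAP2, which acts in coat removal at the Golgi and has 5 sites, fell from 70.2, 73.6 and 66.8 to 57.1, 55.9 and 56.6 CPM (-0.31 ± 0.05, adjusted p 1.33e-05). SEC61B, a subunit of the translocation channel, rose from 163, 166 and 161 to 202, 190 and 192 CPM (0.25 ± 0.04, adjusted p 1.24e-06). ARL2, a GTPase of tubulin folding with 5 sites, fell from 110, 113 and 110 to 90.9, 81.8 and 86 CPM (-0.36 ± 0.04, adjusted p 4.59e-08). Of 17 tubulin genes and folding factors 3 were higher and 1 lower, with 1 higher without control replicate 1, control replicate 2 or miR-497-5p replicate 1. Of 35 lysosome genes 5 were higher and 1 lower, with 2 higher without control replicate 2 and 3 without miR-497-5p replicate 3. Zinc finger genes of chromosome 19 had 3 higher and 5 lower of 226, shares below those of all genes.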
